A study of Mus musculus with 24 samples.

Results

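The 6 genes described here, Olfr44, Olfr315, Olfr287, Olfr297, Olfr1346 and Olfr1366, encode odorant receptors (ORs) and are 6 of the 1175 OR symbols in the table of 45706 genes. They were chosen from their read counts in *WT* and *iRhom2-/-* mice of 8 and 10 weeks, where their levels had looked different between genotypes. The values at these 2 ages are therefore given below as a description, without a test. The question addressed is whether each pattern is also seen in the 12 other libraries of the series, 6 per genotype, which that choice did not use. For 2 of the 6 genes the separation is incomplete, because Olfr1346 and Olfr1366 are also examples of ORs that the study had classed by their difference between the genotypes, from data that include libraries 7 to 12.

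ORs are G-protein coupled receptors of the olfactory sensory neurons (OSNs) in the olfactory epithelium (OE). A mature OSN expresses a single OR gene, usually from 1 allele, and the product of that gene is needed to keep the choice stable. The level of an OR transcript in whole tissue thus follows the number of OSNs that chose the gene as well as the transcripts in each of these cells. In bulk RNA, fewer cells of a type and less RNA per cell cannot be told apart.

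The series holds bulk RNAseq of the main olfactory epithelium of untreated mice of a mixed strain, either *WT* or *iRhom2-/-*, with 3 mice per genotype at each of 4 ages (5, 8, 10 and 30 weeks). The *iRhom2-/-* mice lack functional iRhom2, the product of Rhbdf2 and a partner of the membrane protease ADAM17, in all cells, through an allele that carries a LacZ reporter under the gene's own promoter. Libraries 1 to 3 of each genotype come from mice of 10 weeks and libraries 4 to 6 from mice of 8 weeks. Libraries 7 to 12 of each genotype are, by elimination, those of the mice of 5 and 30 weeks, but their names give only the genotype, so the age of any single one is not known and age could not be a term in their fit. The labels give 1 reference number of the sequencing core to the mice of 10 weeks, another to those of 8 weeks and a shared one to those of 5 and 30 weeks, so the comparison within libraries 7 to 12 stays within 1 such number. All mice of 5 and 30 weeks are labelled male, while WT 3, iRhom2-/- 3 and WT 6 are labelled female.

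Libraries 7 to 12 held between 25333822 and 38296560 counts, and the other libraries between 33812446 and 48660394. A count of 0 allows a level of up to 3 counts, which is the counting floor used here. Levels are given as CPM, the counts per 1000000 after TMM scaling. In this unit the floor lay between 0.0749 and 0.113 in libraries 7 to 12, and it covers counting error only. In iRhom2-/- 2 a single gland gene, Bpifb9b, took 13.6% of the counts. Without this library the log2 fold changes over 8 and 10 weeks were -3.46 for Olfr44, 1.36 for Olfr315, 1.14 for Olfr287, -2.54 for Olfr297, 0.90 for Olfr1346 and -0.42 for Olfr1366, against -3.57, 1.28, 1.10, -2.24, 1.04 and -0.39 with it. The value of Olfr1366 depended more on other libraries. It was -0.57 without iRhom2-/- 5 and -0.26 without iRhom2-/- 3 or without WT 3. The targeted gene Rhbdf2 separated the genotypes as labelled, with 22.0 ± 1.89 CPM in *WT* and 10.1 ± 2.06 CPM in *iRhom2-/-* libraries (SD, n = 6 each). Its log2 fold change was -1.15 with a standard error of 0.13 (edgeR quasi-likelihood test, adjusted p = 0.000801 over 18481 genes), and all 6 *iRhom2-/-* libraries lay below all 6 *WT* libraries. The level of Omp, a marker of mature OSNs, was 5524 ± 863 CPM in *WT* and 5544 ± 918 CPM in *iRhom2-/-* libraries. All 10 listed mature OSN markers were tested, and their median log2 fold change was 0.055 (-0.056 with scaling to the summed counts of all ORs). The 8 listed macrophage markers all had lower estimates in *iRhom2-/-* libraries, with a median of -0.34, and none passed the test with edgeR or DESeq2, although 5 had an unadjusted p under 0.05 (6.8% of all genes tested, counting lower levels) and 1, Lyz2, passed in a fit with a term for Gap43 that is described next. Their summed level ranged from 319 to 544 CPM in *WT* and from 199 to 484 CPM in *iRhom2-/-* libraries, no marker was at 0, and their part in the values below was not tested.

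Libraries 7 to 12 stood apart in 2 sets within each genotype, which was noticed after the values were seen. Gap43, a marker of immature OSNs, was at 162, 143 and 211 CPM in WT 7, 8 and 9 and at 63.1, 67.3 and 67.2 CPM in WT 10, 11 and 12. In *iRhom2-/-* mice the order of the numbers was the opposite, with 66.0, 75.9 and 49.1 CPM in libraries 7, 8 and 9 and 245, 214 and 200 CPM in libraries 10, 11 and 12. Of the 8 immature OSN markers 7 separated the same 3 libraries from the same 3 others within both genotypes. So did all 6 globose basal cell markers, the markers of dividing neuronal progenitors. None of the 10 mature OSN markers was higher in the libraries with high Gap43 in this way. The summed level of these 10 was lower there, at 9959 to 12036 CPM against 13859 to 15424 CPM with low Gap43. Omp stood at 4282 to 5752 CPM with high Gap43 and at 5810 to 6486 CPM with low Gap43. The labels do not say what divides these libraries. By elimination, 3 libraries of each genotype come from mice of 5 weeks and 3 from mice of 30 weeks. No label says which these are, so the part of age in the split was not tested. Members are compared within these sets below. The share of all ORs whose genotypes separate within a set, 3 libraries against 3, was not counted. The fit was therefore repeated with the log2 level of Gap43 as a term, and its values are given beside the results that it changes. With this term 921 genes passed (4.98%), 546 of them higher, and Rhbdf2 stood at -1.14 (SE 0.12, edgeR adjusted p = 0.000418).

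None of the 6 ORs passed the test in libraries 7 to 12, although each kept the direction of difference seen at 8 and 10 weeks (that of Olfr297 turned when any of 3 libraries was left out). Over all 18481 genes tested, 51 passed at an adjusted p of 0.05 (0.276%), 29 of them higher in *iRhom2-/-* libraries (0.157%) and 22 lower. With library totals in place of TMM, 69 of 93 calls were higher, and with scaling to the summed counts of all ORs, 10 of 39 were higher. Of the 804 ORs tested, 0 passed (0%) with edgeR's quasi-likelihood test, while 50 (6.22%) had an unadjusted p under 0.05, against 2616 of all genes tested (14.2%). DESeq2 called 3 ORs (0.373%), against 557 of all genes (3.01%), and the fit with the Gap43 term called 6 ORs (0.746%), 4 of them higher. The former were Olfr1024, Olfr1242 and Olfr1259, the latter these 3 with Olfr378, Olfr393 and Olfr1501, all named here after their values were seen, and none is a member of the set. With the Gap43 term the adjusted p of the members lay between 0.128 for Olfr44, fitted without a filter, and 0.630 for Olfr1346. Groups that did not overlap were seen for 344 genes (1.86%) and for 4 ORs (0.498%) in libraries 7 to 12, and no member was among them. The ORs as a whole had a median log2 fold change of 0.097, with 502 of 804 above 0, against -0.0015 for all genes tested. With scaling to the OR total, the median over all genes shifted to -0.11 and that of the ORs to -0.00070.

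**Figure D1:**
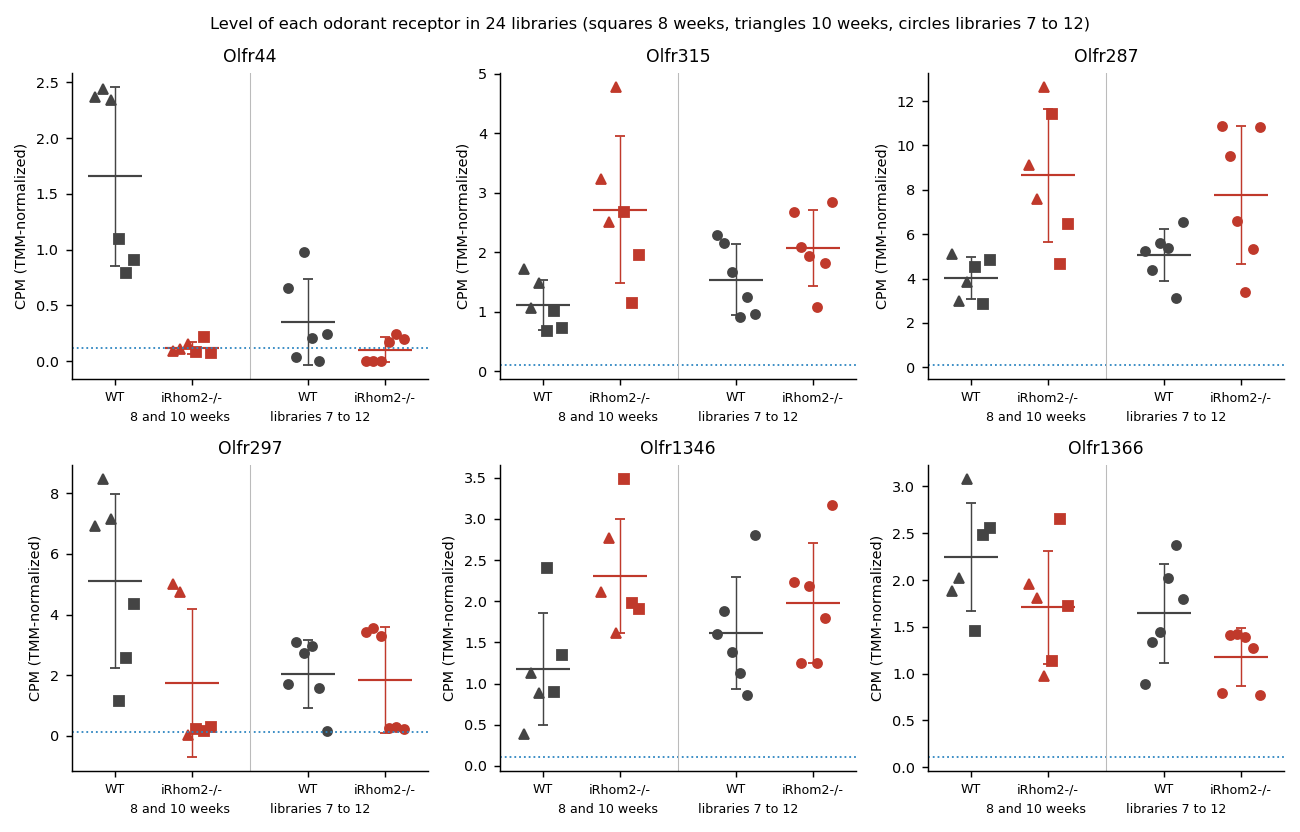
Level of each of the 6 ORs in CPM (vertical axis, linear, TMM-normalized) in *WT* (black) and *iRhom2-/-* (red) libraries, at 8 and 10 weeks on the left of each panel and in libraries 7 to 12 on the right. Each symbol is 1 library, bars are means with SD, and the dotted line is the highest counting floor of libraries 7 to 12 (0.113 CPM). The groups of libraries 7 to 12 overlap in all 6 panels.

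**Figure D2:**
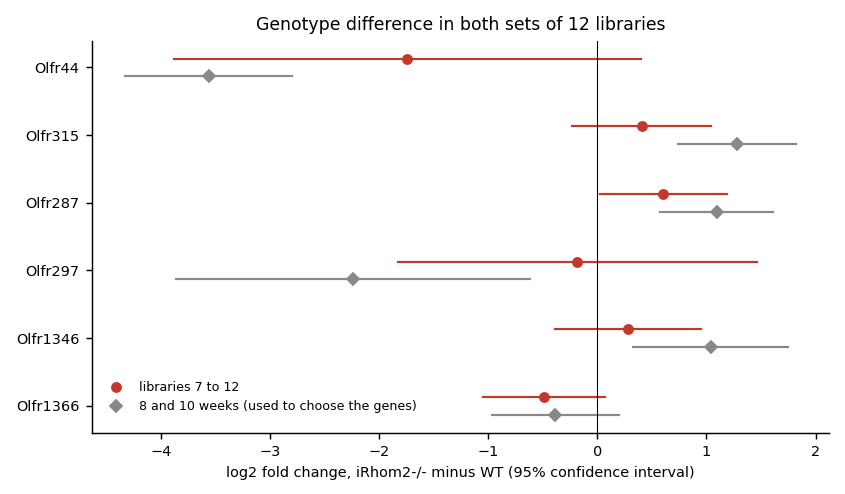
Log2 fold change (*iRhom2-/-* minus *WT*) of each OR with its 95% confidence interval in libraries 7 to 12 (red circles) and at 8 and 10 weeks (grey diamonds, the values used to choose the genes). In libraries 7 to 12 the interval of Olfr287, from 0.023 to 1.19, is the only one of the 6 that does not include 0.

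The sequence before the start of a receptor gene is where factors of OR choice act, among them Ebf proteins and the homeodomain protein Lhx2. Promoter windows of 250 bases before to 50 after the start were read from RefSeq (GRCm38.p6) for Olfr44, Olfr287, Olfr297, Olfr1346 and Olfr1366, and Olfr315 has no entry. They were searched on both strands for CCCNNGGG, the core of Ebf sites, and for the homeodomain cores TAATTA and TAATGA, which share the letters TAAT and may overlap. The only match among the 5 members was 1 CCCNNGGG in Olfr287, at 65 bases before the start. CCCNNGGG is found in 13.7% of 32851 promoters and in 3.06% of 948 OR promoters, TAATTA in 5.29% and 18.6%, and TAATGA in 9.78% and 28.8%. For Olfr297 and Olfr1346 the RefSeq start is the first base of the coding sequence, and for Olfr1366 it lies 24 bases from it, so these windows may not be the promoter. Olfr287 held the match (in capitals) and came closest to the threshold in the fit with TMM scaling and no Gap43 term. Olfr44 had the largest difference at 8 and 10 weeks. The 250 bases before the start are given for Olfr287 (chr15:98221057-98221306) and Olfr44 (chr9:39493989-39494238), each 5′ to 3′ on the minus strand.
Olfr287: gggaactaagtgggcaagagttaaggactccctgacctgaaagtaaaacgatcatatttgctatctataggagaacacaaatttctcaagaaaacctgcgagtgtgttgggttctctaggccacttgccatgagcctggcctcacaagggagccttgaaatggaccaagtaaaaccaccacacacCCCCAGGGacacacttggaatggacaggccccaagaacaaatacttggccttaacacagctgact
Olfr44: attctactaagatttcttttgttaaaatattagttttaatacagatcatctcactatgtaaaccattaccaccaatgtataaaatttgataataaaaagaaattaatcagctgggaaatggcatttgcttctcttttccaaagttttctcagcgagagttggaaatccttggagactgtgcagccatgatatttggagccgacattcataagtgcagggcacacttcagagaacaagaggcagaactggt

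The receptors with higher levels in *iRhom2-/-* mice at 8 and 10 weeks were Olfr287, Olfr315 and Olfr1346. Olfr287 lies on chromosome 15 (98206971 to 98221056, minus strand, GRCm38) and had the highest level of the 6. At 10 weeks it stood at 5.12, 2.99 and 3.85 CPM in *WT* and at 9.14, 7.59 and 12.6 CPM in *iRhom2-/-* mice. At 8 weeks it stood at 4.51, 2.87 and 4.83 CPM in *WT* and at 11.4, 4.67 and 6.46 CPM in *iRhom2-/-* mice. The genotypes were separate at 10 weeks, and at 8 weeks 1 *iRhom2-/-* mouse, at 4.67 CPM, lay within the *WT* range. The fitted log2 fold change was 1.31 (SE 0.27) at 10 weeks and 0.88 (SE 0.36) at 8 weeks.

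Olfr287 in libraries 7 to 12 measured 5.24, 4.39, 5.61, 5.37, 3.11 and 6.54 CPM in *WT*, in the order of the library numbers. The *iRhom2-/-* libraries measured 10.9, 9.52, 6.61, 3.41, 5.35 and 10.8 CPM. Of these, 4 lay above every *WT* library, while iRhom2-/- 10 and iRhom2-/- 11 lay within the *WT* range. Both of the latter had high Gap43, and among the libraries with high Gap43 the genotypes overlapped. Among those with low Gap43 the *iRhom2-/-* libraries, at least at 6.61 CPM, lay narrowly above the *WT* libraries, at most at 6.54 CPM. This held on the TMM scale only. With library totals or with scaling to the OR total, iRhom2-/- 9 lay below WT 12, and these genotypes overlapped. In both of these scalings 3 *iRhom2-/-* libraries, not 4, lay above every *WT* library. With scaling to the OR total 1 lay below every *WT* library. The split by Gap43 is a description and was not tested, and how many ORs separate in the same way was not counted. The means were 5.04 ± 1.17 CPM and 7.77 ± 3.11 CPM (SD, n = 6 each), a log2 fold change of 0.60 with a standard error of 0.27 and a 95% confidence interval of 0.023 to 1.19. The unadjusted p of the quasi-likelihood fit was 0.0426 and the adjusted p was 0.335. The two-sided exact permutation test over the 924 allocations of 6 of 12 libraries gave p = 0.102, where the smallest p it can give is 0.00216. Olfr287 thus repeated in direction and missed the threshold. Its counts ranged from 97 to 434. The coding sequence of Olfr287 is close to those of 2 other ORs. The closest is that of Olfr288, 97.1% identical over 954 aligned bases, and the estimated counts of these genes may depend on how shared reads were divided.

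Olfr315 lies on chromosome 11 (58773188 to 58780251, plus strand), the chromosome of Rhbdf2 but 57.8 Mb from it. At 10 weeks it stood at 1.73, 1.06 and 1.48 CPM in *WT* and at 3.23, 2.51 and 4.78 CPM in *iRhom2-/-* mice. At 8 weeks the values were 0.673, 1.02 and 0.736 CPM in *WT* and 2.68, 1.15 and 1.95 CPM in *iRhom2-/-* mice. Within each of these ages the genotypes did not overlap, and the fitted log2 fold change was 1.31 (SE 0.33) at 10 weeks and 1.25 (SE 0.39) at 8 weeks. The *WT* values in libraries 7 to 12 were 2.29, 2.16, 1.67, 0.923, 1.25 and 0.970 CPM, and the *iRhom2-/-* values were 2.68, 2.09, 1.94, 1.08, 1.83 and 2.85 CPM. The ranges overlapped widely, with 2 *iRhom2-/-* libraries above every *WT* library. Among the libraries with low Gap43 the genotypes did not overlap (*WT* 0.923, 1.25 and 0.970 CPM, *iRhom2-/-* 2.68, 2.09 and 1.94 CPM). Among those with high Gap43 they overlapped, and the sets, defined from the data, were not tested. How many ORs separate within such a set was not counted. The means were 1.54 ± 0.593 CPM and 2.08 ± 0.638 CPM (SD, n = 6 each). The log2 fold change was 0.40 (SE 0.29, 95% confidence interval -0.23 to 1.04, edgeR adjusted p = 0.577, exact permutation p = 0.173).

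Olfr1346 lies on chromosome 7 (6467101 to 6478112, plus strand). At 10 weeks it stood at 0.384, 1.12 and 0.888 CPM in *WT* and at 2.11, 2.76 and 1.61 CPM in *iRhom2-/-* mice. At 8 weeks the values were 2.40, 0.903 and 1.35 CPM in *WT* and 3.48, 1.97 and 1.90 CPM in *iRhom2-/-* mice. The genotypes were separate at 10 weeks and overlapped at 8 weeks, where the highest *WT* mouse exceeded 2 of the 3 *iRhom2-/-* mice. The fitted log2 fold change was 1.45 (SE 0.43) at 10 weeks and 0.66 (SE 0.43) at 8 weeks. In libraries 7 to 12 the *WT* values were 1.61, 1.88, 1.39, 1.13, 0.866 and 2.80 CPM, and the *iRhom2-/-* values were 2.23, 1.25, 2.18, 1.25, 1.79 and 3.17 CPM. A single *iRhom2-/-* library, iRhom2-/- 12, lay above every *WT* library. The genotypes overlapped among the libraries with high Gap43 and among those with low Gap43. The means were 1.61 ± 0.684 CPM and 1.98 ± 0.724 CPM (SD, n = 6 each), a log2 fold change of 0.28 (SE 0.31, 95% confidence interval -0.39 to 0.95, edgeR adjusted p = 0.732, exact permutation p = 0.338). Single libraries weighed on this value, which was 0.096 without iRhom2-/- 12, 0.50 without WT 12 and 0.15 without WT 11.

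The receptors with lower levels in *iRhom2-/-* mice at 8 and 10 weeks were Olfr44, Olfr297 and, to a lesser degree, Olfr1366. Olfr44 lies on chromosome 9 (39481786 to 39493995, minus strand). It had 74, 76 and 79 counts in *WT* and 3, 3 and 5 counts in *iRhom2-/-* mice of 10 weeks. At 8 weeks it had 49, 34 and 37 counts in *WT* and 4, 10 and 3 counts in *iRhom2-/-* mice. It was the only member whose genotypes did not overlap over these 12 libraries, as was the case for 8 of the 862 ORs tested there (0.928%), and 3 of the 6 *iRhom2-/-* libraries were at the floor of 3 counts. The fitted log2 fold change was -4.28 (SE 0.36) at 10 weeks and -2.91 (SE 0.53) at 8 weeks.

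Olfr44 in libraries 7 to 12 was close to the floor in both genotypes. The *WT* libraries had 20, 1, 38, 6, 0 and 7 counts, and the *iRhom2-/-* libraries had 0, 0, 0, 5, 7 and 8 counts. Only WT 7 and WT 9, at 0.655 and 0.977 CPM, stood clearly above all *iRhom2-/-* libraries, whose highest value was 0.241 CPM, while WT 8 and WT 11 were at or below the floor. The means were 0.352 ± 0.385 CPM and 0.103 ± 0.114 CPM (SD, n = 6 each). The gene did not pass the filter on low counts, and in a fit without a filter its log2 fold change was -1.74 (SE 1.00, 95% confidence interval -3.88 to 0.40, edgeR adjusted p = 0.508). The exact permutation test gave p = 0.160. Without WT 9 the log2 fold change was -1.10, so 1 library carried much of the estimate. With the Gap43 term it was -2.49 (SE 0.82, 95% confidence interval -4.23 to -0.75, edgeR unadjusted p = 0.00823, adjusted p = 0.128). The 3 *iRhom2-/-* libraries at 0 counts were those with low Gap43. A high *WT* level like that of the mice of 10 weeks, at least 2.34 CPM, was not reached by any of the 6 *WT* libraries. WT 9, at 0.977 CPM, lay within the range of the *WT* mice of 8 weeks, 0.787 to 1.10 CPM, and the other *WT* libraries lay below that range. The part of age in this was not tested, since the age of each library is not known.

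Olfr297 lies on chromosome 7 (86519968 to 86528497, plus strand) and had either high or very low counts. At 10 weeks the *WT* mice had 217, 264 and 242 counts and the *iRhom2-/-* mice had 169, 129 and 1. At 8 weeks the *WT* mice had 51, 111 and 177 counts and the *iRhom2-/-* mice had 10, 7 and 13. The mouse with 1 count, iRhom2-/- 3, is labelled female, and so is WT 3, which had 242 counts. The fitted log2 fold change was -3.61 (SE 0.57) at 8 weeks and -1.19 (SE 0.91) at 10 weeks, and at both ages every *iRhom2-/-* mouse lay below every *WT* mouse of its age. At 10 weeks the size of the difference rested largely on 1 mouse, since the other 2 stood at 5.02 and 4.76 CPM against at least 6.94 CPM in *WT*.

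Olfr297 in libraries 7 to 12 had 52, 90, 106, 87, 49 and 4 counts in *WT* libraries. The *iRhom2-/-* libraries had 91, 105, 95, 7, 8 and 9 counts. The *iRhom2-/-* libraries were thus split into 3 above every *WT* library (3.29 to 3.54 CPM) and 3 below all *WT* libraries but WT 12 (0.225 to 0.276 CPM). The means were 2.03 ± 1.13 CPM and 1.84 ± 1.74 CPM (SD, n = 6 each), and the log2 fold change was -0.18 (SE 0.76, 95% confidence interval -1.83 to 1.46, edgeR adjusted p = 0.945, exact permutation p = 0.545). The split of the *iRhom2-/-* libraries was that of Gap43. Among the libraries with high Gap43, Olfr297 had 52, 90 and 106 counts in *WT* and 7, 8 and 9 counts in *iRhom2-/-* mice. Among those with low Gap43 it had 87, 49 and 4 counts in *WT* and 91, 105 and 95 counts in *iRhom2-/-* mice, so that the pooled estimate averages over opposite differences. These values are a description, since the sets were defined from the data, and the part of what divides them, age included, was not tested. The share of ORs that separate within either set was not counted. With the Gap43 term the log2 fold change was -0.79 (SE 0.75, 95% confidence interval -2.41 to 0.82, edgeR adjusted p = 0.562). The direction of the pooled estimate was not stable. Without iRhom2-/- 10, iRhom2-/- 11 or iRhom2-/- 12 the estimate turned to 0.045, 0.042 and 0.063, and it was -0.34 with scaling to the OR total and -1.08 with 1 surrogate variable in the fit. Its coding sequence is close to those of 2 other ORs. The closest is that of Olfr295, 90.8% identical over 921 bases, so that some reads may have been divided among them. Olfr295 had at most 18 counts in any of the 12 libraries, and the counts of the other OR are not given here.

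**Figure D3:**
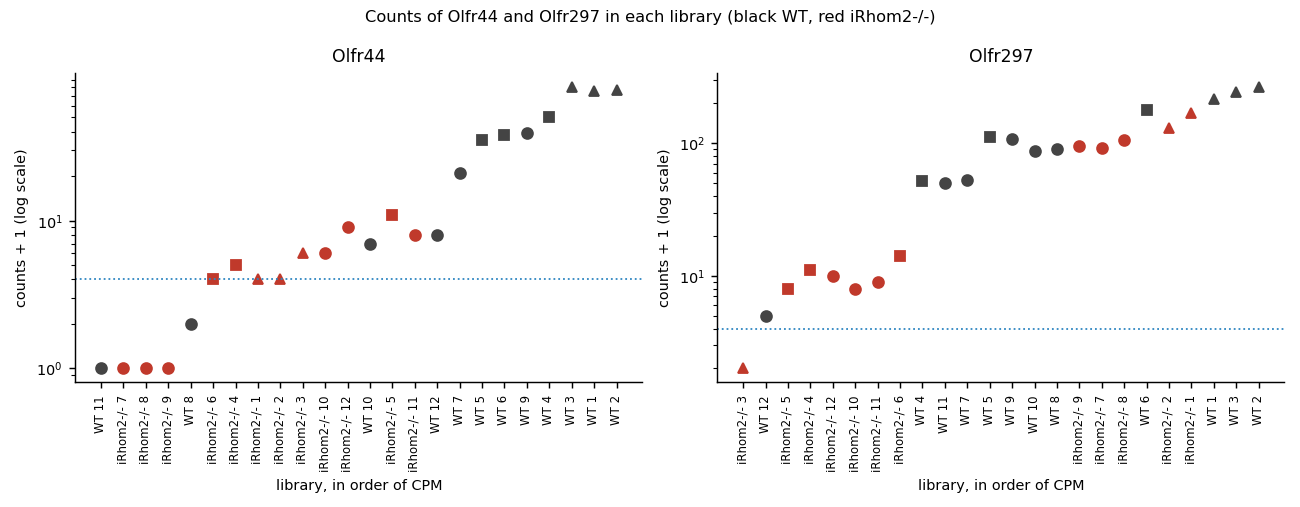
Counts plus 1 (vertical axis, log scale) of Olfr44 and Olfr297 in each of the 24 libraries, ordered by CPM, with *WT* in black and *iRhom2-/-* in red (squares 8 weeks, triangles 10 weeks, circles libraries 7 to 12) and the floor of 3 counts as a dotted line. Olfr297 has 8 libraries with at most 13 counts and 16 with at least 49, and Olfr44 has 16 libraries with at most 10 counts and 8 with at least 20.

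Across the 24 libraries the counts of Olfr297 left a gap. In 8 libraries they reached at most 13 and in 16 libraries they were at least 49, with nothing between 0.295 and 1.14 CPM. The low libraries were WT 12 and iRhom2-/- 3, 4, 5, 6, 10, 11 and 12, that is 1 of 12 *WT* and 7 of 12 *iRhom2-/-* libraries. For Olfr44, 16 libraries had at most 10 counts, including all 12 *iRhom2-/-* libraries and 4 *WT* libraries, and 8 *WT* libraries had at least 20. These gaps were looked for after the values were seen, and are a description of these libraries.

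Olfr1366 lies on chromosome 13 (21535113 to 21542808, minus strand) and had the smallest difference of the 6 at the ages that the choice used. At 10 weeks it stood at 1.89, 2.02 and 3.08 CPM in *WT* and at 1.96, 1.81 and 0.974 CPM in *iRhom2-/-* mice. At 8 weeks the values were 1.46, 2.48 and 2.55 CPM in *WT* and 1.14, 2.65 and 1.72 CPM in *iRhom2-/-* mice. The genotypes overlapped at both ages, with log2 fold changes of -0.55 (SE 0.35) at 10 weeks and -0.24 (SE 0.38) at 8 weeks, so a consistent difference was not seen there. The *WT* values in libraries 7 to 12 were 0.885, 1.34, 1.44, 2.02, 2.37 and 1.80 CPM, and the *iRhom2-/-* values were 0.793, 1.42, 1.42, 1.39, 1.28 and 0.774 CPM. All 6 *iRhom2-/-* libraries lay below the *WT* mean of the log2 values, and 2 lay below every *WT* library. Among the libraries with low Gap43 the *iRhom2-/-* values, at most 1.42 CPM, lay below the *WT* values, at least 1.80 CPM. Among those with high Gap43 the genotypes overlapped. This split was not tested, and the share of ORs that separate in it was not counted. The means were 1.64 ± 0.531 CPM and 1.18 ± 0.310 CPM (SD, n = 6 each), a log2 fold change of -0.49 (SE 0.26, 95% confidence interval -1.05 to 0.069, edgeR adjusted p = 0.419, exact permutation p = 0.115). Counted as a share of all OR counts in a library, the exact permutation p was 0.0346, and with library totals it was 0.128. The former is 1 of 6 such tests in that scaling alone, and was adjusted neither for them nor for the other scalings. The fit with scaling to the OR total gave an adjusted p of 0.328 with edgeR.

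The 6 receptors differed widely in level. Per kilobase of exon, the mean *WT* level in libraries 7 to 12 was 1.86 ± 0.433 CPM for Olfr287, 1.05 ± 0.586 for Olfr297, 0.622 ± 0.239 for Olfr315, 0.512 ± 0.166 for Olfr1366, 0.355 ± 0.150 for Olfr1346 and 0.0984 ± 0.108 for Olfr44 (CPM per kilobase, SD, n = 6). The ranges overlapped in all 5 pairs of neighbours in this order. Among the 1175 ORs, whose median was 0.206 CPM per kilobase, Olfr287 ranked 50 in *WT* and 24 in *iRhom2-/-* libraries. Olfr44 ranked 828 and 1027, respectively.

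**Figure D4:**
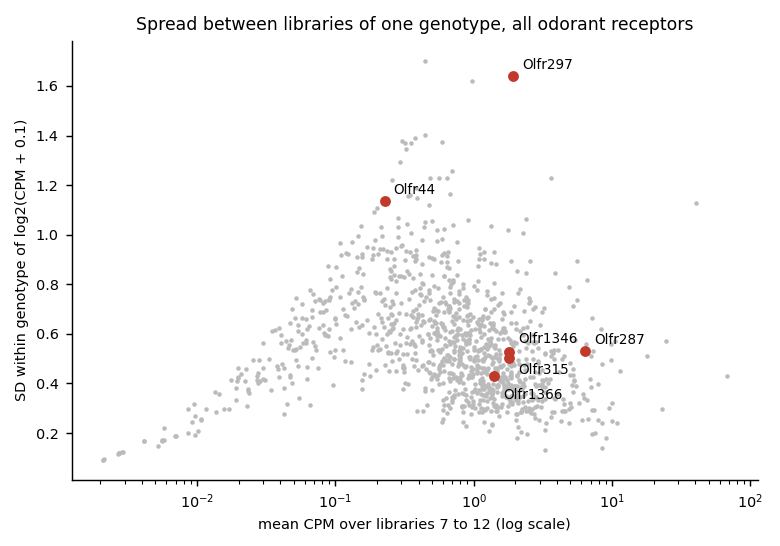
SD between libraries of 1 genotype (vertical axis, pooled over both genotypes, of log2(CPM + 0.1)) against the mean CPM over libraries 7 to 12 (horizontal axis, log scale) for each OR with counts (grey) and for the 6 members (red). Olfr297, at 1.64, lies above all 407 ORs of like level. The SD includes the difference between libraries with high and low Gap43.

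Spread between mice of the same genotype also differed among the members. For Olfr297 the SD within genotype was 1.64 on the log2 scale, above each of the 407 ORs whose mean lay within 2-fold of its own, which had a median of 0.448. In *iRhom2-/-* libraries it was 1.83, across the sets of low (3.29 to 3.54 CPM) and high Gap43 (0.225 to 0.276 CPM). In *WT* libraries it was 1.42, with WT 12 at 0.139 CPM. For Olfr44 it was 1.14, above 199 of 212 such ORs. The values of Olfr287 (0.531), Olfr1346 (0.526), Olfr315 (0.503) and Olfr1366 (0.431) lay between the 40.1 and the 80.0 percentile of ORs of like level. Olfr287 spread more in *iRhom2-/-* (0.656) than in *WT* libraries (0.364), a difference that was not tested.

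No OR near a member in the genome was called in libraries 7 to 12. OR genes lie in clusters, and within 200 kb of the 6 genes 36 other ORs were tested, none of which passed with edgeR or DESeq2 and 1 of which had an unadjusted p under 0.05. The estimates that follow are on the TMM scale, and the median over these 36 was 0.20, against 0.097 over all ORs tested. With scaling to the OR total these medians were 0.085 and -0.00070. They were 0.089 and 0.070 with the Gap43 term, which called none of the 36. Around Olfr44 4 of 8 tested ORs had estimates above 0, with a median log2 fold change of 0.13, and its nearest neighbours Olfr954 and Olfr957 stood at 0.47 (SE 0.29) and -0.19 (SE 0.36). Around Olfr297 6 of 7 had estimates above 0, with a median of 0.32, while Olfr297 itself (-0.18, SE 0.76) had no stable direction. The nearest, Olfr298 and Olfr292, stood at 0.36 (SE 0.69) and -0.13 (SE 0.48). Around Olfr287 all 3 tested ORs were above 0, including Olfr288 at 0.22 (SE 0.35) and Olfr286 at 0.29 (SE 0.30). Around Olfr315 4 of 6 were above 0, and the nearest, Olfr314 and Olfr317, stood at 0.31 (SE 0.38) and -0.15 (SE 0.33). Olfr1346 lies 0.284 kb from Olfr1336 and 0.210 kb from Olfr5, whose estimates were 0.21 (SE 0.29) and 0.14 (SE 0.24). Around Olfr1366 all 5 tested ORs were below 0, with a median of -0.28, and the nearest, Olfr1535, stood at -0.26 (SE 0.71). At 8 and 10 weeks, as a description, 3 of 4 ORs around Olfr287 were above 0, with Olfr288 at 0.83 and Olfr286 at 0.64. The medians there were 0.50 around Olfr287, 0.10 around Olfr1346, -0.018 around Olfr1366, -0.059 around Olfr44 and -0.40 around both Olfr315 and Olfr297.

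The genes whose levels were most alike to each member over the 12 libraries were scattered over the genome. By Spearman correlation among 18443 genes, a description over 12 libraries that share depth and tissue, Olfr287 was closest to D630003M21Rik (0.909) and to the receptor gene Olfr263 (0.895). Olfr315 was closest to the cannabinoid receptor gene Cnr1 (0.923) and to Olfr281 (0.881), and Olfr1346 to Pars2 (0.888) and Gm10647 (0.846). Olfr44 was closest to Grwd1 (0.936) and Gm6619 (0.922), and Olfr1366 to Eno1b (0.951) and Olfr1495 (0.944). Olfr297 was closest to the mitochondrial genes mt-Co2 and mt-Nd6 (0.965 each). None of these 12 genes lies on the chromosome of its member.

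The machinery through which OSNs choose, traffic and use ORs was measured in the same libraries. Of 26 genes listed for OR choice and trafficking, 0 passed the test with edgeR, 10 had an unadjusted p under 0.05 with higher levels in *iRhom2-/-* libraries (7.35% of all genes tested), and 23 had estimates above 0, with a median log2 fold change of 0.16. With scaling to the OR total, 14 were above 0 and the median was 0.042. DESeq2, which called 3.01% of all genes, called 2, Ebf2 and Ebf3, and the fit with the Gap43 term, which called 4.98%, called 4 higher, namely Bptf, Dnmt3a, Ebf3 and Tet3. The smallest p belonged to the transcription factor genes Ebf3 (0.27, SE 0.063, adjusted p = 0.0939) and Ebf2 (0.21, SE 0.064, adjusted p = 0.180). Of 19 genes listed for signal transduction downstream of the receptors, 0 passed, 1 in each direction had an unadjusted p under 0.05, DESeq2 called 0, the fit with the Gap43 term called Pde4a higher, and the median was 0.041 (-0.067 with scaling to the OR total). They were the chloride transporter gene Slc12a2 (0.16, SE 0.066) and the G protein subunit gene Gng13 (-0.52, SE 0.19). Of 14 genes listed for OSN activity, 5 of which the study had named from data that include these mice, 0 passed and 6 had an unadjusted p under 0.05 with lower levels (6.8% of all genes tested), with a median of -0.23 (-0.35 with scaling to the OR total). DESeq2 and the fit with the Gap43 term both called the same 4 of them lower, namely Dlg2, Lrrc3b, Pcp4l1 and S100a5. The lowest p were those of Pcp4l1 (-0.43, SE 0.082, adjusted p = 0.0507) and Dlg2 (-0.62, SE 0.12, adjusted p = 0.0537).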

How the data were processed

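Bulk RNAseq of whole OE was made from 24 mice. The authors used polyA selection and a directional library kit, ran an nf-core workflow with alignment by STAR against GRCm38, and estimated the count of each gene by RSEM. The authors' deposited table gives these counts as whole numbers, without normalization. How they were rounded is not stated. Its columns of the authors' own comparison over all mice (log fold change, mean level, statistic, p-value and FDR) are not used here. Of the 24 columns of counts, the 12 numbered 1 to 6 match the label of 1 mouse each, and the 12 numbered 7 to 12 show only the genotype.

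Libraries 7 to 12 were compared in R 4.3.3 with edgeR 4.0.16 (filterByExpr, TMM, quasi-likelihood test, Benjamini-Hochberg adjustment over all genes tested, threshold 0.05). CPM are scaled by TMM over all 24 libraries. Two-sided exact permutation tests used the mean of log2(CPM + 0.1) in Python 3.11.15 with scipy 1.17.1. The estimates at 8 and 10 weeks come from a fit with age as a term. Alternatives were DESeq2 1.42.0, other scalings and filters, edgeR's likelihood ratio test, 1 surrogate variable (sva 3.50.0), adjustment over ORs alone, and leaving out each library. The term for Gap43 was added after the data were seen. The fit was tested on simulated data. Positions are those of GENCODE M21, and coding sequences were compared with blastn 2.17.0.

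The 6 genes, the lists and the motifs were chosen with earlier results of these data known. Genes named besides them are Rhbdf2, Omp and Gap43, the nearest tested OR on either side within 200 kb, the 2 most alike genes per member, and the 2 genes of each list with the smallest p in each direction. Other genes named in the text were chosen after their values were seen. Within genotypes, 60 pairs of libraries differed by at least 12.8 in chi-square per degree of freedom, so none was counted as a duplicate. Nothing in the labels ties mice to litters, and p-values measure the spread between these mice.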

Additional observations from a re-analysis of the deposited data

How the results depend on the processing

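In libraries 7 to 12, no alternative put any of the 6 ORs past the threshold of the fit across genes, with adjusted p of at least 0.128 in all of them. Olfr315, Olfr287, Olfr1346 and Olfr1366 kept their direction under 22 of 22 alternatives each, and Olfr297 under 19 of 22. Olfr297 reversed without iRhom2-/- 10 (0.045), iRhom2-/- 11 (0.042) and iRhom2-/- 12 (0.063). With libraries left out in turn, the log2 fold change ranged from -0.48 to 0.063 for Olfr297, from 0.096 to 0.50 for Olfr1346, from 0.49 to 0.76 for Olfr287, from 0.29 to 0.55 for Olfr315, from -0.62 to -0.36 for Olfr1366 and from -2.17 to -1.10 for Olfr44. Olfr44 was fitted only without a filter, so the other alternatives, but for the Gap43 term, gave it no value. The exact permutation p of Olfr1366 passed the threshold with scaling to the OR total (0.0346, not adjusted). It was the only exact permutation p of any member to do so in the scalings used. The count of genes called was 51 and became 557 with DESeq2, 204 with edgeR's likelihood ratio test, 674 with 1 surrogate variable, 921 with the Gap43 level as a term (chosen after seeing the data), 93 with library totals and 17 to 68 with a library left out, the highest without iRhom2-/- 9 and 17 to 31 with each of the 11 others left out. The count of ORs was 0 and became 3, 4, 6 and 6 with DESeq2, the likelihood ratio test, the surrogate variable and the Gap43 term, and 0 in all other settings. The estimates at 8 and 10 weeks, whose values chose the genes, kept their direction in all settings, which is a description and no test. That of Olfr44 lay between -3.99 and -3.40 when a mouse was left out. The cause of these shifts was not tested. No paired analysis was possible because the columns 7 to 12 carry no replicate number of the labels and the values at 8 and 10 weeks come from no test. Depth limits Olfr44, whose counts are near the floor.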

Other observations

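Other cell type markers gave these values in libraries 7 to 12, where 0 genes of any of these lists passed edgeR's test, DESeq2 called 0 and 2 genes had an unadjusted p under 0.05. Medians are on the TMM scale, and with scaling to the OR total those of the globose basal and sustentacular markers changed sign (-0.016 and -0.078). With the Gap43 term the fit called Stmn1 lower and Muc2 higher among them, and the median of the globose basal markers was -0.13. The 8 immature OSN markers had a median log2 fold change of 0.16, and Gap43 stood at 0.23 (SE 0.45), an estimate over the libraries that its level divides. Their summed level was 775 to 927 CPM in the 6 libraries with low Gap43 and 1441 to 1931 CPM in the 6 with high Gap43, and that of the globose basal markers was 57.2 to 70.6 and 117 to 146 CPM. The 6 globose basal cell markers had a median of 0.079, the 4 horizontal basal cell markers 0.20, the 6 sustentacular cell markers 0.034 and the 5 respiratory ciliated cell markers -0.042. The 5 erythrocyte markers had a median of -0.30, and their summed level was 1853 to 3352 CPM in *WT* and 1310 to 2497 CPM in *iRhom2-/-* libraries.

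The ORs whose genotypes did not overlap in libraries 7 to 12 are named here after their values were seen. Olfr103 had 11 to 19 counts in *WT* and 19 to 27 counts in *iRhom2-/-* libraries, and Olfr776 had 7 to 25 and 24 to 37. Olfr475-ps1, a pseudogene, had 1 to 16 and 17 to 70, and Olfr1242 had 70 to 109 and 105 to 163. All 4 were higher in *iRhom2-/-* libraries, with log2 fold changes of 0.61, 0.93, 1.53 and 0.53 and adjusted p of 0.266, 0.202, 0.168 and 0.0984 in edgeR's test. At 8 and 10 weeks their genotypes overlapped.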
